A study of Homo sapiens with 3 samples.

Results

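Transcription factors of the stomach and intestine, 8 in all, were followed in the established human cell line NCI-N87, which derives from a gastric carcinoma. The factors, CDX1, CDX2, GATA4, GATA5, GATA6, SOX2, SOX9 and HNF4A, were taken by symbol from a table of 31907 rows, and 8 of 8 had a row. The cells had been transfected with Lipofectamine 2000. One library, labelled wild type, came from cells given a scrambled siRNA. The other 2, labelled knockdown, came from cells given different siRNAs against FOXP4, a forkhead transcription factor, and are called siRNA1 and siRNA2. The labels give no time after transfection and no culture or day of harvest, so separate cultures cannot be assumed, and all values come from 1 tumour line.

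These factors set regional identity along the gut tube. SOX2 marks the foregut and stomach, while CDX1 and CDX2 are homeodomain factors that switch on the intestinal programme and keep SOX2 low in the normal intestine. GATA4, GATA5 and GATA6 are zinc finger factors of endoderm, and GATA4 and GATA6 are active in gastric and proximal intestinal epithelium. HNF4A, a nuclear receptor, is needed for epithelial differentiation along the gut, and SOX9 marks progenitor cells. CDX2 appears outside its normal place in intestinal metaplasia of the stomach and in many gastric cancers.

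Values are TPM, in which each share of reads is divided by transcript length, so levels may be set side by side between genes. Each value is 1 library. The estimated depth was about 18067500 reads in the scrambled library, 18255800 in the siRNA1 library and 18844800 in the siRNA2 library. It covers only the 22180 of 31907 rows matched by symbol to an exon length, so the full depth was not estimated. Of the 9 gastrointestinal epithelial markers checked, 9 were measured. EPCAM was at 1136, 1150 and 813 TPM in the scrambled, siRNA1 and siRNA2 libraries. CDH1 was low, at 4.16, 5.86 and 11.6 TPM in the same order, and so was CLDN18, at 10.9, 5.602 and 3.39 TPM. Markers of other cell types were low. The summed level was 0.54 to 1.44 TPM over 4 neuroendocrine markers and 0.54 to 2.74 TPM over 5 squamous markers. It was 0 to 0.08 TPM over 3 endothelial markers and 3.66 to 4.75 TPM over 5 immune markers, near CDH1 in the control. Among 6 fibroblast markers the sum was 7.06 to 22.7 TPM, nearly all of it COL1A1, and COL1A2, DCN and LUM were listed at 0 in each library. FOXP4 itself measured 93.9, 51.6 and 36.7 TPM, log2 folds of -0.85 and -1.33. With a trend of folds on GC content removed, as described for the factors further on, these were -0.20 and -1.02. Mitochondrially encoded RNA took 6.37%, 10.4% and 1.92% of TPM.

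The levels and their folds came out in 3 patterns. CDX2, SOX2 and GATA5 were at least 2-fold below the scrambled library with both siRNAs. GATA4 and GATA6 were also lower with both, by less than 2-fold with siRNA1. SOX9 was higher with both, HNF4A lay close to the control, and CDX1 was listed at 0 in every library. None of these differences passed the limma fit (adjusted p = 0.9999 over all genes, for each of 7 factors). In a bulk library, fewer cells of a type and less RNA per cell cannot be told apart.

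**Figure D1:**
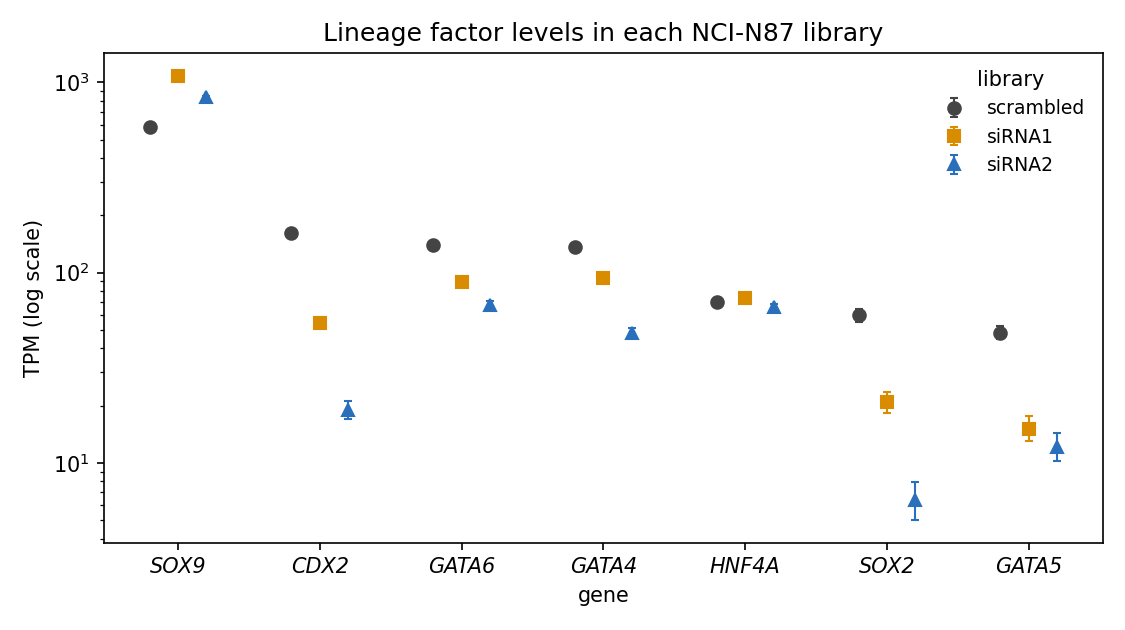
TPM on a log axis for the 7 measured factors in the scrambled (circles), siRNA1 (squares) and siRNA2 (triangles) libraries. Bars are 95% exact Poisson intervals on estimated reads and cover counting error only. CDX2 went from 161 to 54.6 and 19.0 TPM, while HNF4A stayed between 65.8 and 73.8 TPM. CDX1, at 0 in each library, is not drawn.

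CDX2 (ENSG00000165556.9, chromosome 13, 27962137 to 27971139, minus strand, GRCh38) measured 161 TPM in the scrambled, 54.6 TPM in the siRNA1 and 19.0 TPM in the siRNA2 library. The control was the highest of the 3, and siRNA2 was lower than siRNA1. These values rested on about 3125, 1026 and 363 estimated reads. The siRNA1 library held 33.9% of the control level (95% exact interval 31.6% to 36.4%) and the siRNA2 library 11.8% (10.6% to 13.2%), where intervals cover counting error only. Its log2 folds, on the log2(TPM + 1) scale, were -1.54 and -3.02 (mean -2.28 ± 1.04, SD, n = 2 siRNAs). Ordered by the smaller of the 2 falls, CDX2 had rank 73 of 14429 genes.

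SOX2 (ENSG00000181449.3, chromosome 3, 181711924 to 181714436, plus strand) measured 59.5, 20.8 and 6.35 TPM, on about 704, 238 and 74 estimated reads. The library order was the same as for CDX2. The remaining share was 34.9% (30.04% to 40.5%) with siRNA1 and 10.7% (8.29% to 13.6%) with siRNA2. Log2 folds of -1.47 and -3.04 gave a mean of -2.26 ± 1.11 (SD, n = 2 siRNAs), at rank 83. SOX2 has a single exon and lies wholly inside the SOX2-OT gene on the same strand. SOX2-OT, a long non-coding RNA, was listed at 0.21, 0.02 and 0.04 TPM, so its level was small beside that of SOX2 in each library.

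The intestinal CDX2 and the gastric SOX2 kept nearly the same ratio in each library. CDX2 stood at 2.71 times SOX2 in the control and at 2.63 and 2.99 times it in the siRNA1 and siRNA2 libraries. Among 9127 other genes that averaged 10 TPM or more, the gene whose pair of log2 folds lay nearest to that of CDX2 was SOX2, and the nearest to SOX2 was CDX2, at a distance of 0.07 log2 units. GPX2, a glutathione peroxidase of the gut epithelium, came next for both, at 181, 82.2 and 20.3 TPM and distances of 0.42 and 0.35. FBXO9, an F-box protein of ubiquitin ligases, followed at 23.5, 9.09 and 3.33 TPM. With 3 libraries such likeness rests on 2 folds that share the scrambled control.

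Upstream sequence was looked up for the factors in the RefSeq promoter table (GRCh38.p14), which matched CDX2, SOX2, GATA6 and HNF4A, the last with 2 start sites. In the 250 bases before each start, 6 short motifs were searched on both strands. The forkhead core TAAACA was in 10.99% of all 35116 windows, and its longer form GTAAACA, which contains it, in 2.98%. The GATA motif AGATAA was in 9.17%, the CDX motif TTTATNG in 8.93%, and the SOX motifs ACAAAG and ACAATG in 13.72% and 9.29%. CDX2 held GTAAACA starting 13 bases before its RefSeq start, AGATAA on the opposite strand 119 bases before it and TTTATNG on the opposite strand 181 bases before it. GATA6 held TAAACA on the opposite strand 111 bases before its start. SOX2 held ACAAAG 220 bases before its start and neither forkhead form. HNF4A held AGATAA 26 bases before its upstream start and none of the 6 motifs at the downstream start. A match is a run of letters and not a shown binding site.

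The CDX2 and GATA6 stretches with matches are shown, 5′ to 3′ on the strand of the gene, with the matched letters in capitals, because the CDX2 window held the longer forkhead form and GATA6 the shorter. In GENCODE 29 these stretches lie inside the spans of the CDX2 and GATA6 genes, although they come before the RefSeq starts. The sequence before SOX2 is also shown, since SOX2 had the folds most like those of CDX2, and it held neither forkhead form. Whether any of these letters bear on the folds was not tested.
CDX2 forkhead, chr13:27969316-27969345, minus strand: attactaatagagtcttGTAAACActcgtt
CDX2 GATA, chr13:27969417-27969446, minus strand: cctccctcccctTTATCTtttaaaatgcaa
CDX2 CDX, chr13:27969478-27969507, minus strand: gaagctcttaaCAATAAAggtttgaatatt
GATA6 forkhead, chr18:22169466-22169495, plus strand: gcgagcgctgttTGTTTAgggctcggtgag
SOX2 upstream, chr3:181711675-181711923, plus strand: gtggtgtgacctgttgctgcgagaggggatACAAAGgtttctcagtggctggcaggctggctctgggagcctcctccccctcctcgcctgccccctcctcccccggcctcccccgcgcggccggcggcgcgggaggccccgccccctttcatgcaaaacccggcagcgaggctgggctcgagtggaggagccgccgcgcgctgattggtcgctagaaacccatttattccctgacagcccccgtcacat

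CDX1, the paralog of CDX2 (ENSG00000113722.16, chromosome 5, 150166795 to 150184558, plus strand), was listed at 0 TPM in all 3 libraries. Taking 3 reads as the limit that a count of 0 allows, which is a one-sided bound unlike the two-sided intervals given for the other factors, its level was at most 0.36 TPM with the scrambled siRNA and 0.37 TPM with either FOXP4 siRNA. CDX2 was thus the CDX factor measured in these cells, and CDX1 did not enter the comparison.

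The 3 GATA factors were all expressed and all lower with both siRNAs, by unequal amounts. GATA5 (ENSG00000130700.6, chromosome 20, 62463497 to 62475970, minus strand) measured 48.4, 15.1 and 12.1 TPM, on about 591, 179 and 146 estimated reads. Its siRNA libraries lay close together and well under the control. The remaining shares were 31.3% (26.3% to 37.1%) and 25.1% (20.8% to 30.1%), intervals that overlap. Its log2 folds of -1.61 and -1.91 had a mean of -1.76 ± 0.21 (SD, n = 2 siRNAs), and GATA5 had rank 66.

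GATA4 (ENSG00000136574.17, chromosome 8, plus strand) measured 137, 93.6 and 48.2 TPM. Both siRNA libraries were below the control, and siRNA2 was the lowest. The shares left were 68.4% (64.5% to 72.5%) and 35.2% (32.7% to 37.9%), and the log2 folds -0.54 and -1.49. Their mean was -1.02 ± 0.67 (SD, n = 2 siRNAs).

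GATA6 (ENSG00000141448.8, chromosome 18, 22169443 to 22202528, plus strand) measured 139, 89.3 and 67.2 TPM. The order of the libraries was again control, siRNA1, siRNA2. The shares left were 64.2% (60.3% to 68.3%) and 48.3% (45.1% to 51.8%). Log2 folds of -0.63 and -1.04 gave a mean of -0.84 ± 0.29 (SD, n = 2 siRNAs). Its antisense neighbour GATA6-AS1 measured 15.4, 6.14 and 3.91 TPM, log2 folds of -1.20 and -1.74. Their gene models overlap by 436 bases on opposite strands in GENCODE 29. The labels do not say that the counting used strand, so reads from the overlap cannot be told apart.

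The summed level of the 3 GATA genes was 324 TPM in the control and 198 and 128 TPM in the siRNA1 and siRNA2 libraries. GATA4 and GATA6 made up 42.2% and 42.9% of the control sum, and GATA5 14.9%. GATA5 was 7.65% of the sum with siRNA1 and 9.52% with siRNA2. GATA6 was 45.1% and 52.7%, and GATA4 was 47.3% and then 37.8%. GATA5 stood at 0.35 of the GATA6 level in the control and at 0.17 and 0.18 of it with the siRNAs. These shares and ratios are of values as deposited. With the trend on GC content removed, siRNA1 log2 folds were -0.93 for GATA5 and -0.37 for GATA6, against -1.61 and -0.63. With siRNA2 they were -1.59 and -0.73, against -1.91 and -1.04.

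SOX9 (ENSG00000125398.6, chromosome 17, 72121020 to 72126420, plus strand) was the most abundant of the factors in each library, at 585, 1074 and 839 TPM. Both siRNA libraries were above the control, and siRNA1 was the higher. The level was 183% of the control (179% to 188%) with siRNA1 and 143% (140% to 147%) with siRNA2. Its log2 folds of 0.87 and 0.52 had a mean of 0.70 ± 0.25 (SD, n = 2 siRNAs). SOX9 stood at 3.63 times CDX2 in the control and at 19.6 and 44.1 times it with siRNA1 and siRNA2.

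HNF4A (ENSG00000101076.16, chromosome 20, 44355700 to 44434596, plus strand) measured 69.7, 73.8 and 65.8 TPM. The siRNA libraries lay on either side of the control. The level was 106% of the control (100.02% to 112%) with siRNA1 and 94.4% (89.1% to 100.04%) with siRNA2, and the log2 folds were 0.08 and -0.08. Its RefSeq start sites lie at 44355699 and 44401239, and the table gives 1 value for both. CDX2 stood at 2.31 times HNF4A in the control and at 0.74 and 0.29 times with the siRNAs.

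The order of the factors by level differed between libraries. With the scrambled siRNA the order was SOX9, CDX2, GATA6, GATA4, HNF4A, SOX2, GATA5. GATA6 and GATA4 had overlapping counting intervals there (134 to 145 TPM and 132 to 142 TPM). With siRNA1 the order was SOX9, GATA4, GATA6, HNF4A, CDX2, SOX2, GATA5, and GATA4 and GATA6 again overlapped. With siRNA2 it was SOX9, GATA6, HNF4A, GATA4, CDX2, GATA5, SOX2, and GATA6 and HNF4A overlapped (63.5 to 71.1 TPM and 63.1 to 68.6 TPM). CDX2 thus went from the second place to the fifth with both siRNAs.

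**Figure D2:**
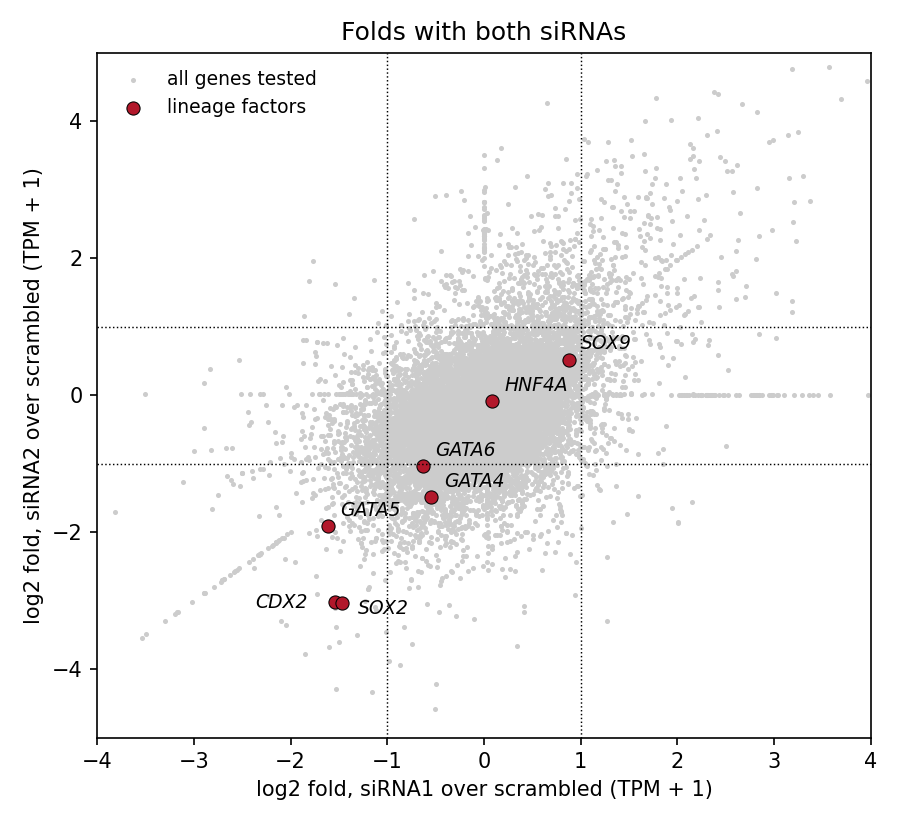
Log2 fold of each gene over the scrambled library with siRNA1 (x axis) and siRNA2 (y axis), on the log2(TPM + 1) scale, for 14429 genes tested (grey) and the 7 measured lineage factors (red). Dotted lines mark 2-fold, and 15 genes lie outside the axes. CDX2 and SOX2 sit almost on top of each other at about -1.5 and -3.0, with GATA5 above them and SOX9 on the opposite side of 0.

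By size, 3 of 7 measured factors were at least 2-fold lower with both siRNAs, where 2.38% of all genes tested were, and 0 of 7 were at least 2-fold higher, where 2.52% were. Of the 7, 5 lay below the control with both siRNAs, where 38.1% of genes did. With siRNA1 alone the same 3 were at least 2-fold lower (6% of all genes), and with siRNA2 alone GATA4 and GATA6 joined them, making 5 (13.2% of all genes). The factors were chosen with earlier results of these data known, so their count is a description. The difference between siRNAs was widest for SOX2 and CDX2, at -1.57 and -1.48 log2 units of siRNA2 minus siRNA1. It was -0.94 for GATA4, -0.40 for GATA6, -0.36 for SOX9, -0.30 for GATA5 and -0.16 for HNF4A. The median of all genes was itself lower with siRNA2, at -0.24 against 0.03 with siRNA1.

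The limma fit, on the 14429 genes averaging 1 TPM or more, called 0 genes (0% of those tested), with 428 genes at an unadjusted p under 0.05, among them the 3 factors CDX2, SOX2 and GATA5. Standard errors of the mean fold were 0.71 for CDX2, 0.78 for SOX2, 0.52 for GATA5, 0.57 for GATA4, 0.47 for GATA6, 0.53 for SOX9 and 0.45 for HNF4A. In limma on the 9129 genes averaging 10 TPM or more, 93 genes passed (1.02%), and CDX2 (adjusted p = 0.00823) and SOX2 (adjusted p = 0.0488) were lower among them. In that fit all genes shared 1 variance trend and the gene's own spread did not enter. For the related genes named further on, limma results are those of the fit on 14429 genes alone. Passing the fit at 10 TPM is thus not shown to be particular to CDX2 and SOX2. Over the alternatives the adjusted p ran from 0.00823 to 0.9999 for CDX2 and from 0.0488 to 0.9999 for SOX2.

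The 7 measured factors lay above the median GC content of genes tested, and folds moved with GC content, most of all with siRNA1. The Spearman correlation of GC content and fold, taken across genes that are no independent replicates, was -0.61 with siRNA1 and -0.10 with siRNA2. The longest transcripts of the 7 factors held 50.7% (SOX2) to 63.4% (GATA5) GC, above the median of 48.2% over genes tested. The upper quartile was 56.34%, with GATA5 and GATA4 (61.1%) well above it. CDX2 (56.35%) was at it and the other measured factors were below it. With the trend of fold on GC removed, CDX2 folds were -1.22 and -2.71 and SOX2 folds -1.41 and -2.78, still beyond 2-fold with both siRNAs. GATA5 folds were -0.93 and -1.59, so it no longer met the 2-fold rule, and 2 of 7 factors did, where 0.951% of genes did. GATA4 folds were then 0.01 and -1.18, so with siRNA1 it no longer lay below the control. GATA6 folds were -0.37 and -0.73, SOX9 folds 0.95 and 0.79, and HNF4A folds 0.24 and 0.21. The ratios, shares and orders of factors given above are of values as deposited, with this trend left in.

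**Figure D3:**
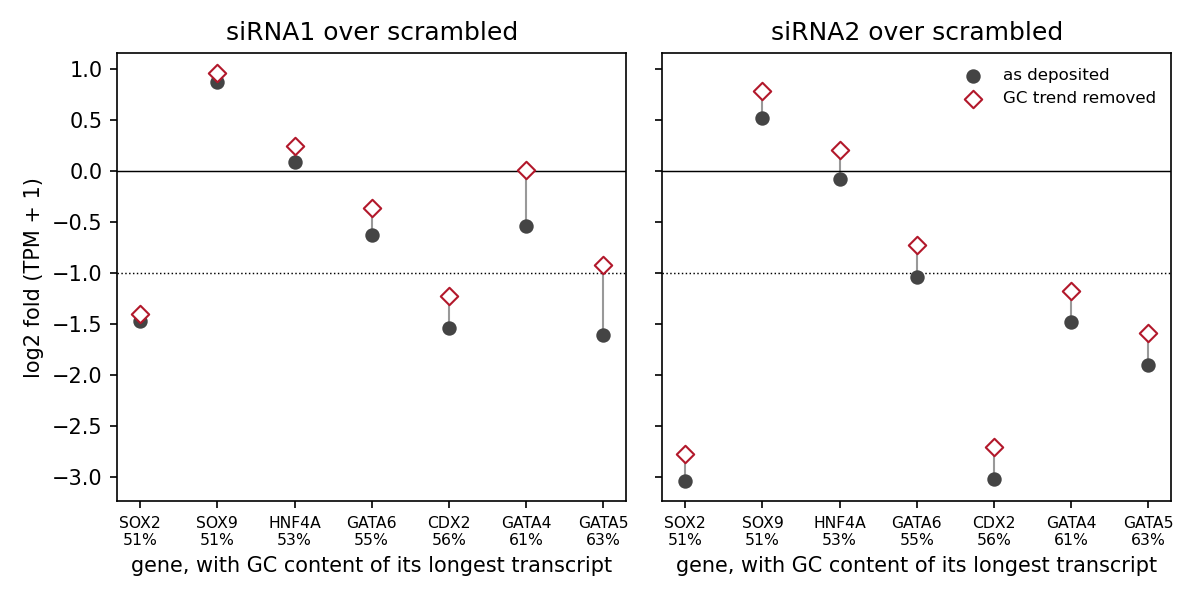
Log2 fold over the scrambled library for each measured factor with siRNA1 (left) and siRNA2 (right), as deposited (filled circles) and with the trend on GC content removed (open diamonds). Genes are ordered by GC content, and the dotted line marks 2-fold lower. The largest shifts were in GATA5 and GATA4 with siRNA1, and SOX2 and CDX2 stayed below the line in both panels.

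Relatives of the factors were mostly silent, and those expressed went both ways. Of 25 listed paralogs and FOG cofactors, 8 could be tested and 6 were listed at 0 throughout. With both siRNAs 2 were at least 2-fold lower and 2 at least 2-fold higher, where 2.38% and 2.52% of all genes tested were. SOX4, a SOX factor of progenitor cells, measured 27.6, 97.5 and 285 TPM. SOX21, which belongs to the same broader SOXB family as SOX2, measured 5.73, 15.2 and 71.5 TPM, so it stood below SOX2 in the control and with siRNA1 and above it with siRNA2. SOX12, a relative of SOX4, measured 95.0, 39.8 and 43.7 TPM, and ZFPM1, the GATA cofactor FOG1, measured 31.0, 13.9 and 12.9 TPM. Removing the GC trend changed the siRNA1 fold of SOX12 from -1.23 to -0.63 and that of ZFPM1 from -1.10 to -0.08. SOX13 (37.1, 37.4 and 27.9 TPM) and HNF4G, the paralog of HNF4A (8.04, 9.18 and 8.76 TPM), stayed near the control. GATA3 and GATA1 were at or near 0, and GATA2 was under 0.4 TPM in each library. None of the 8 passed limma (smallest adjusted p = 0.9999).

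Of 28 other gut transcription factors listed, 18 could be tested. With both siRNAs 0 were at least 2-fold lower and 0 at least 2-fold higher, where 2.38% and 2.52% of all genes tested were. Below the control with both lay 7 and above it 6, where 38.1% and 24.5% of all genes did. These 18 were thus not set apart from all genes by count. Their median log2 folds were -0.04 and -0.14, beside 0.03 and -0.24 over all genes. KLF5, an epithelial proliferation factor, measured 393, 696 and 1548 TPM, and KLF4, a factor of epithelial differentiation, 54.7, 108 and 522 TPM. FOXA3, a forkhead factor of endoderm, measured 182, 212 and 304 TPM, and the epithelial factor ELF3 86.4, 66.4 and 95.5 TPM. CREB3L1 was at 201, 132 and 99.6 TPM and ESRRA at 112, 77.2 and 116 TPM. A further pair was named after the values were seen: FOXA1, at 69.1, 52.4 and 38.0 TPM, and PDX1, a factor of the pancreas and gastric antrum, at 23.2, 14.8 and 8.54 TPM. Removing the GC trend changed the siRNA1 log2 fold of PDX1 from -0.61 to -0.13. That of CREB3L1 went from -0.61 to -0.06 and that of FOXA1 from -0.39 to -0.30. None of the 18 passed limma (smallest adjusted p = 0.9999).

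Of 29 listed intestinal genes, 12 could be tested. With both siRNAs 0 were at least 2-fold lower and 0 at least 2-fold higher, where 2.38% and 2.52% of all genes tested were. Of the 12, 4 lay below the control with both and 2 above, where 38.1% and 24.5% of all genes did. So few genes were thus not set apart from all genes by count. The median log2 folds of the 12 were -0.08 and 0.01, beside 0.03 and -0.24 over all genes. The lowest with siRNA1, named after the values were seen, were ALPI, the intestinal alkaline phosphatase, at 8.23, 2.42 and 4.35 TPM, and CDHR5, a cadherin of the brush border, at 12.7, 4.31 and 15.1 TPM. Their siRNA1 log2 folds of -1.43 and -1.37 were -0.82 and -0.62 with the trend on GC content removed. CDH17, the intestinal cadherin and a known CDX2 target, measured 350, 409 and 252 TPM. LGALS4, a galectin of the gut, measured 147, 144 and 176 TPM, VIL1, the microvillus protein villin, 136, 122 and 128 TPM, and MUC13, a membrane mucin, 62.5, 74.2 and 93.7 TPM. REG4 was at 786, 828 and 740 TPM and USH1C at 29.4, 17.8 and 23.8 TPM. MUC2 and TFF3, products of intestinal goblet cells, were under 0.6 TPM in each library.

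Only part of the gastric list could be tested, as for the intestinal list. Of 21 gastric genes listed, 8 could be tested and 6 were at 0 throughout. With both siRNAs 0 were at least 2-fold lower and 1 at least 2-fold higher, where 2.38% and 2.52% of all genes tested were. The higher gene was ANXA10, an annexin of gastric epithelium, at 0.47, 2.91 and 12.98 TPM. It was under 1 TPM in the control and was tested only because the siRNA libraries raised its mean, so its count leans on the filter. CTSE, the gastric protease cathepsin E, measured 2081, 1982 and 2135 TPM, and TFF1, a peptide of surface mucous cells, 75.95, 57.4 and 136 TPM. CLDN18, a tight junction protein whose stomach form marks gastric epithelium, measured 10.9, 5.602 and 3.39 TPM, PGC 12.6, 4.23 and 8.63 TPM and CAPN8 5.73, 6.68 and 22.3 TPM. MUC5AC was under 0.05 TPM in each library and MUC6 was listed at 0. No gene of the intestinal or gastric lists passed limma (smallest adjusted p = 0.9999).

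**Figure D4:**
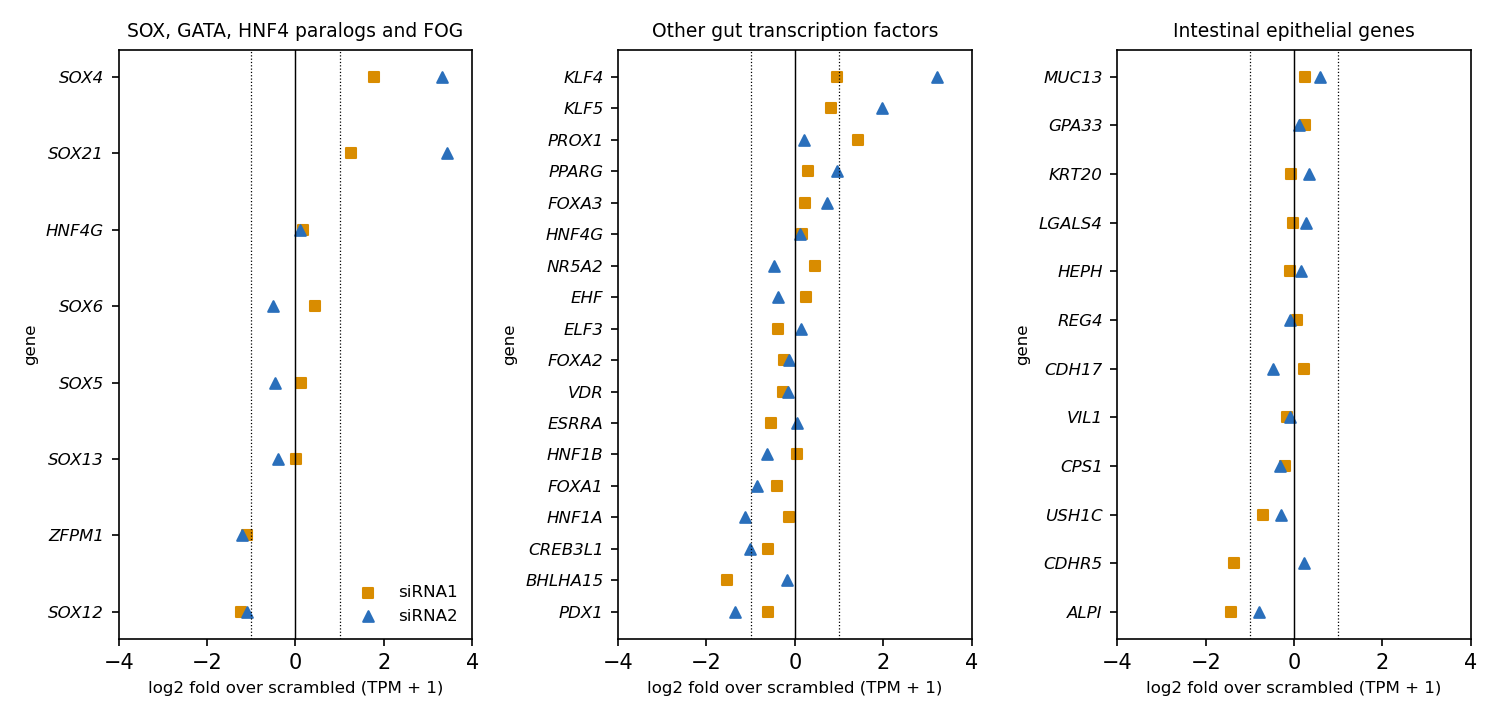
Log2 fold over the scrambled library with siRNA1 (squares) and siRNA2 (triangles) for tested paralogs and FOG cofactors (left), other gut transcription factors (middle) and intestinal epithelial genes (right). Dotted lines mark 2-fold. SOX4 and SOX21 lie past the line on the high side with both siRNAs and SOX12 and ZFPM1 on the low side, while no intestinal gene is past the same line with both.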

How the data were processed

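Poly(A) RNA of 3 NCI-N87 libraries was sequenced. The authors deposited 1 table of TPM, with 1 column per library; per the submitters' processing notes the build was GRCh38, and the quantification tool and annotation are not given in the sources used here. Reads behind a value were estimated from the steps of TPM times exon length (GENCODE 29, matched by symbol for 22180 rows): among values below 2 TPM and at most 10 reads, 93.2%, 92.9% and 93.0% came within 0.1 of whole reads. Intervals from these reads (95%, exact Poisson or Clopper-Pearson) cover counting error only and rest on those lengths.

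Folds used log2(TPM + 1), which understates changes of low genes, and genes averaging 1 TPM or more. Limma 3.58.1 in R 4.3.3 compared the 2 FOXP4 siRNA libraries with the scrambled library, with an intensity trend and Benjamini-Hochberg adjustment over all genes (threshold 0.05). With 1 residual degree of freedom, the error comes from how the siRNAs differ, and the lone control is assumed to vary alike. The p-values thus reflect variation among these libraries only, which may be technical. The step that estimated reads was tested on simulated reads of a known depth. The GC trend was a lowess curve of each fold on transcript GC content, fitted on nuclear genes of at least 10 TPM; 85.3% of genes tested had a GC value.

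Members and lists were chosen with earlier results of these data known. Genes named are the 8 factors, FOXP4, the 6 highest of each list and those past 2-fold with both siRNAs, and the 3 nearest to CDX2 and SOX2. FOXA1, PDX1, ALPI, CDHR5, MUC2, TFF3, MUC5AC, MUC6, GATA1, GATA2, GATA3 and SOX2-OT fall outside that rule and were named after their values were seen, and cell type markers were named as checks. Listed symbols without a row were not analysed here.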

Additional observations from a re-analysis of the deposited data

How the results depend on the processing

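CDX2 and SOX2 stayed at least 2-fold lower with both siRNAs in each of the 10 alternative settings run on both siRNA libraries, and GATA5 in 9 of 10, the exception being removal of the GC trend. The mean log2 fold ran from -2.32 to -1.97 for CDX2, -2.36 to -1.91 for SOX2, -1.83 to -1.26 for GATA5, -1.03 to -0.58 for GATA4, -0.84 to -0.55 for GATA6 and 0.65 to 0.87 for SOX9. HNF4A ran from -0.003 to 0.22, so its sign is not settled. Median-of-ratios rescaling moved the median of all genes with siRNA2 from -0.24 to 0.01, and the GATA6 fold with siRNA2 was then -0.76 and that of GATA4 -1.21. At 1.5-fold 4 factors were lower with both siRNAs, where 9.18% of genes tested were.

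Limma called 2 factors and 93 genes among those averaging 10 TPM or more, 1 factor (CDX2) and 92 genes among protein-coding genes alone, and 9 genes but no factor with mitochondrially encoded genes left out. In the protein-coding fit SOX2 had an adjusted p of 0.0554. Those fits, in the order given, tested 9129, 10847 and 14598 genes. The causes of the differences between fits were not tested. Without siRNA1 or siRNA2, values with no test, 5 and 3 factors were at least 2-fold lower and 0 higher. Of the other listed genes, 6 were past 2-fold with both siRNAs, against 2 with a pseudocount of 5 and 13 and 11 with siRNA2 or siRNA1 alone. These counts pool lower and higher genes. Those tested were 18 other gut factors, 12 intestinal, 8 gastric, 8 paralog or cofactor genes and 1 nearby transcript, with HNF4G in more than 1 list. Of all genes tested in the main setting, 2.38% were lower and 2.52% higher with both siRNAs. With siRNA1 alone 6% were lower, and with siRNA2 alone 13.2%. Counting intervals left out the control level for each measured factor with both siRNAs, except HNF4A with siRNA2, and cover counting error only; the limits are the single control library and the unlike siRNAs.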
